A study of Homo sapiens with 35 samples.

Results

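The 40 genes described here drive or mark progress through the cell division cycle, and they were taken by name as rows of the deposited count table, in which all 40 of them stand among 58581 genes. They comprise 5 D and E cyclins, 3 A and B cyclins, 4 cyclin-dependent kinases (CDKs), 5 CDK inhibitors, RB1 with 3 E2F factors, MYC and MYCN, 9 genes that license or carry out DNA replication, and 8 genes of mitosis and proliferation. Their poly(A) RNA was sequenced in 35 libraries of H9, an established line of human embryonic stem cells. All groups came from cells kept in E8 medium on Matrigel, and differentiation in each medium began from single cells. The BA group (12 libraries) received E6 medium with 40 ng/mL of BMP4 and the same amount of Activin A, signals used to induce mesendoderm, which is the common precursor of mesoderm and endoderm. The E6 group (10 libraries) received the same medium with neither factor and served as the control for spontaneous differentiation, and the E8 group (10 libraries) received the medium that maintains pluripotency. Each medium was sampled every 6 h from 6 to 48 h, and the t0 group (3 libraries) is the control at the start. There were 3 replicates at 24 and 48 h in BA, at 48 h in E6, at 48 h in E8 and at t0, and the other 20 groups hold 1 library each. The question was how the genes of the division machinery moved while the cells entered the mesendoderm path, compared with cells that only lost the pluripotency medium or kept it.

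The cycle is run by CDKs that act only when bound to a cyclin. D cyclins with CDK4 or CDK6, and then E cyclins with CDK2, phosphorylate the RB1 protein, which frees the E2F factors to switch on genes of DNA replication, while A and B cyclins with CDK2 and CDK1 carry cells through S phase and mitosis. CDK inhibitors bind these complexes and hold the cycle in G1. Human embryonic stem cells are known for a short G1 phase, for low levels of the INK4 inhibitors, and for high MYC and MYCN, and G1 is known to lengthen when they differentiate.

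Libraries held 11793453 to 37191969 counts, and levels are given as CPM, the count of a gene scaled to a fixed library total after TMM normalization. The labelled cell type was checked with 6 pluripotency genes, whose summed level was 1631 to 6064 CPM in BA, 3076 to 4299 CPM in E6, 2710 to 4426 CPM in E8 and 3150 to 4676 CPM at t0. The 6 did not move together: SOX2 had a median of 132 CPM in BA and 258 CPM in E6, DPPA4 of 532 CPM in BA and 854 CPM in E6, POU5F1 of 792 CPM in BA and 546 CPM in E6, and NANOG of 50.5 CPM in BA and 27.6 CPM in E6. The summed level of 6 mesendoderm genes was 21.1 to 2810 CPM in BA and at most 11.8 CPM in any other group, and that of 6 trophoblast and amnion genes was 65.4 to 306 CPM in BA and at most 24.1 CPM elsewhere. In the trophoblast and amnion list, GATA3 and TFAP2A had medians of 90.2 and 38.9 CPM in BA and of 0.445 and 0.148 CPM in E6, while KRT7 and GABRP had medians of 0.217 and 1.31 CPM in BA and of 1.45 and 3.64 CPM in E6, and CGA was at 0 in every library. The part of these cell types in the differences below was not tested. The blood and endothelium list reached 75.7 to 439 CPM in BA and at most 155 CPM in the other groups, of which KDR made up 71.0 to 437 CPM in BA. The endothelial markers CDH5 and PECAM1 had medians of 1.95 and 0.311 CPM in BA, 4.82 and 0.586 CPM in E6 and 7.42 and 0.566 CPM in E8, with PTPRC at no more than 0.202 CPM and HBZ at no more than 0.0876 CPM in any library. The neuroectoderm list stood at 18.1 to 216 CPM in BA and 35.5 to 342 CPM in E6. Of this, OTX2 made up 13.8 to 214 CPM in BA and 26.8 to 295 CPM in E6. FEZF1 reached 45.5 CPM in E6, and PAX6 and SOX1 at most 1.93 and 5.25 CPM there. The fibroblast list stood at 539 to 956 CPM in BA and 334 to 796 CPM in E6. In it THY1 stood at 44.4 to 605 CPM in BA and 87.1 to 624 CPM in E6. COL1A2 stood at 74.9 to 771 CPM in BA and 78.8 to 185 CPM in E6, and DCN was at most 0.379 CPM. In bulk RNA, fewer cells in a cycle phase and less RNA per cell cannot be told apart. The labels do not say that replicates were separate cultures, so p-values measure only the spread between these libraries.

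Some libraries stood apart. Replicates 2 and 3 differed from replicate 1 in every replicated group: on an axis set to 0 at the mean of replicate 1 and to 1 at the mean of replicates 2 and 3, replicates 2 and 3 lay at 0.927 to 1.08. The unnumbered libraries lay with replicate 1, between -0.153 and 0.0957, except E6 at 18 h (0.339) and E8 at 24 h (0.199). Replicates 2 and 3 were also sequenced more deeply (26097462 to 37191969 counts, against 11793453 to 22115047 in the other libraries), and mitochondrial genes took 2.38 to 5.51% of their counts, against 1.35 to 2.51% in the other libraries. Within replicates 2 and 3 the mitochondrial share was 4.43 and 5.51% at t0, 4.14 and 4.99% in BA at 24 h and 2.38 to 3.68% at 48 h in the 3 media. The part of depth and of this share in the results was not tested. Members were among the genes that differed: in all 5 replicated groups, 12 of the 38 tested members were lower in replicates 2 and 3 than in replicate 1 and 6 were higher. The median difference over the 5 groups exceeded 2-fold for 5 members, among them RB1 (3.02-fold lower in replicates 2 and 3) and CCND1 (2.82-fold lower). Shares over all genes were not computed for these counts, so they are not read as particular to the members. In the E6 library at 18 h, 30 of the 38 tested members fell outside the range of the other 7 E6 libraries, 21 above and 9 below it. The share over all genes was not computed for this count either. Because of the replicate split, the time series was analysed as 24 libraries, the 1 unnumbered or first library at each of 8 times in each medium. Values without the E6 library at 18 h are given where they change a call between BA and E6 over the series.

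Where members share a role, their promoters can share short sequence elements, and windows from 6 promoters are shown because they hold elements known from genes of replication and of mitosis. RefSeq (GRCh38.p14) gave a promoter for 31 of the 40 members, and the 250 bases before each transcription start were searched on both strands. The E2F element was searched as TTTGGCGC, TTTCCCGC, TTTCGCGC or TTTGCCGC, which can overlap each other on opposite strands, the CHR element of mitotic genes as TTTGAA, and the NF-Y element as CCAAT. Capitals below mark these letters on either strand, and each sequence reads 5′ to 3′ on the strand of its gene.
MCM3 (chr6:52284883-52284942, minus strand): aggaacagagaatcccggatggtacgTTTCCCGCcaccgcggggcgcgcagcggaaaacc
MCM6 (chr2:135876524-135876603, minus strand): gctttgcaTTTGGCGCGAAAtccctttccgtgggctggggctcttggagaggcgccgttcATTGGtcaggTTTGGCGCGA
E2F2 (chr1:23531254-23531313, minus strand): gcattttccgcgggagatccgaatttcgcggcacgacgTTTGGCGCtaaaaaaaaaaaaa
CDK1 (chr10:60778151-60778210, plus strand): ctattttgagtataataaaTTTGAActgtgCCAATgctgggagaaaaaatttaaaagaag
CDC20 (chr1:43358871-43358930, plus strand): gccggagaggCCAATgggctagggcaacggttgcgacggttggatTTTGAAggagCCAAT
MKI67 (chr10:128126434-128126533, minus strand): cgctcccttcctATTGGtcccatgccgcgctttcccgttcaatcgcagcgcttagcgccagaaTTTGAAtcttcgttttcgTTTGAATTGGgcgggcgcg
The E2F letters stood in 5 of the 7 replication licensing members with a window (71.4%), in 1 of 7 mitosis members (14.3%) and in 2.79% of all 27305 windows. The CHR letters stood in 4 of 7 mitosis members (57.1%), in 0 of 7 licensing members and in 13.6% of all windows. In the 2 wider lists used below, E2F letters were in 8 of 36 other replication genes (22.2%) and CHR letters in 14 of 28 other mitosis genes (50%). The CCAAT letters were in 19 of 31 members (61.3%) and in 33% of all windows. These are matches of letters, not measured binding, and the classes overlap, since the MYCN window held both E2F and CHR letters.

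Scaled by exon length, the levels of the members spanned a wide range. At the median of the 8 BA times, MCM3 stood at 175 CPM per kilobase of exon, TOP2A at 142, PCNA at 135, MCM7 at 132 and CCND1 at 118. The INK4 inhibitors were at the other end. CDKN2B stood at 0.451 CPM per kilobase in BA and 0.170 in E6. CDKN2A, which encodes p16 and ARF (their transcripts share exons and the gene count does not separate them), was at 0 to 12 counts in a library, and CDKN2C, which encodes p18, at 0 to 8 counts. Both failed the filter on low counts and were not tested, which left 38 members tested in each fit. Exons of 13 of the 40 members overlap exons of another gene on the opposite strand, and the counts of these members are uncertain because the strand setting is not stated. Besides those named with their values below, MCM2 shares 1113 bases with AC023593.1, CDK2 565 with AC025162.1 and CCNA2 254 with EXOSC9.

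A gene is called here at a Benjamini-Hochberg adjusted p below 0.05 in edgeR's quasi-likelihood test across all genes tested. Between BA and E6, averaged over the 8 times with time as a factor, 8 members were higher in BA (CCND1, CCND2, CCNE2, CCNA2, CDK1, CDK2, CDKN2B and RB1) and 7 were lower (CDKN1B, MYCN, MCM2, MCM3, MCM5, CDC6 and BUB1). The 15 calls of 38 (39.5%) stand beside 30.9% of all 18244 genes called in the same fit, with 16.6% of all genes higher in BA and 14.3% lower, so the count is not read as particular to the members. The median log2 difference was -0.077 over the members and -0.0065 over all genes tested. Each medium and time is 1 library in this fit. The error is the spread left over all 24 libraries of BA, E6 and E8 once time and medium are fitted.

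**Figure D1:**
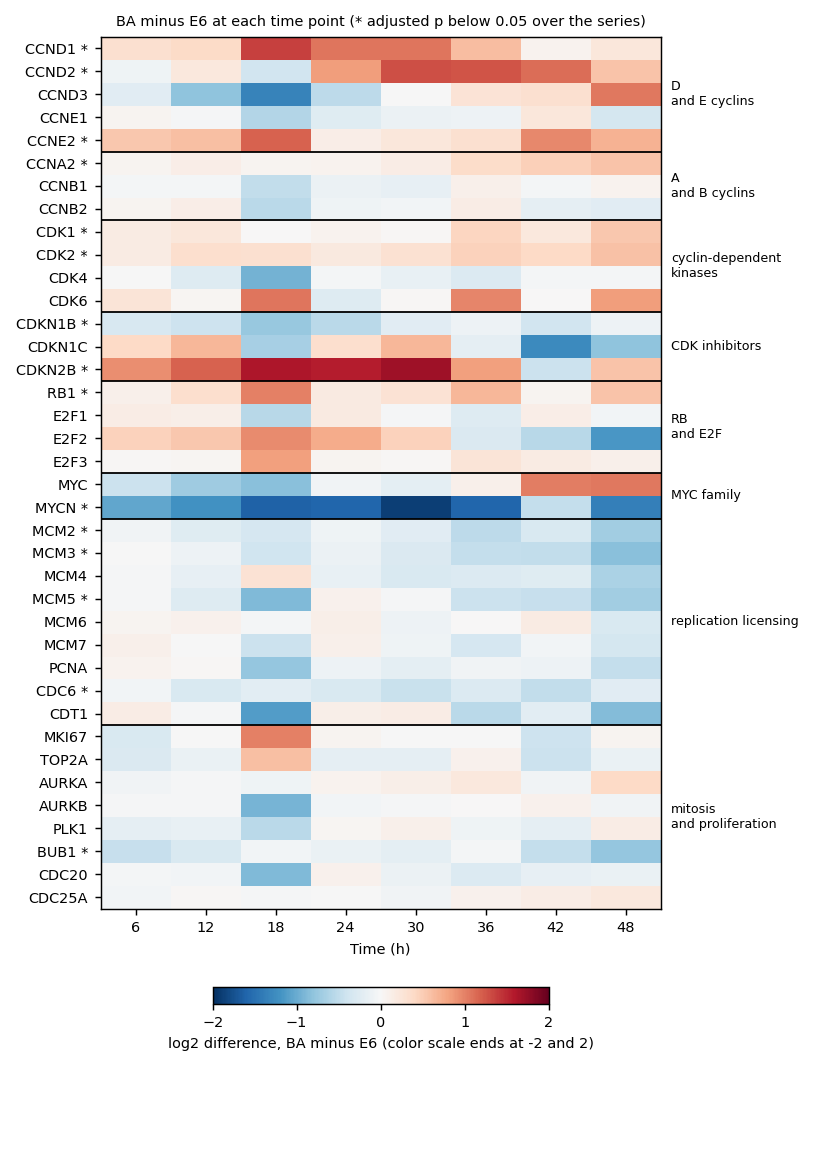
Log2 difference in CPM between BA and E6 at each time (columns, hours) for the 38 tested members (rows, grouped by role); red is higher in BA, blue lower in BA, the scale ends at -2 and 2, and an asterisk marks an adjusted p below 0.05 over the series. CCND1, CCNE2, CDK2 and RB1 were higher in BA at all 8 times and MYCN, MCM2, MCM3 and CDC6 lower, while the 18 h column carries the E6 library that stood apart.

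The D cyclins, which start the cycle by activating CDK4 and CDK6, did not move as 1 group. CCND1 stood at 335 to 917 CPM (median 572) over the 8 BA times, against 261 to 439 CPM (median 371) in E6. It was higher in BA at all 8 times, although the ranges overlapped, with a 1.61-fold mean difference (log2 difference 0.69 ± 0.16 SE, adjusted p = 0.00335). Its BA values formed a peak, with 447, 526, 672, 917, 808, 617, 335 and 378 CPM at 6, 12, 18, 24, 30, 36, 42 and 48 h. CCND2 stood at 107 to 282 CPM (median 177) in BA and 91.3 to 191 CPM (median 115) in E6, where the highest value was the 18 h library (1.56-fold higher in BA, log2 difference 0.65 ± 0.16 SE, adjusted p = 0.00528). Its difference was largest at 30 h. Its BA level was highest at 30 and 36 h (281 and 282 CPM), and that of CCND1 at 24 h. CCND3 took the opposite path: it stood at 16.2, 12.3, 11.1, 13.4, 16.7, 23.6, 21.9 and 41.3 CPM in BA from 6 to 48 h, against 16.8 to 28.7 CPM (median 19.5) in E6. It lay below E6 at the first 5 times and above it at the last 3, and its mean difference of -0.11 ± 0.19 did not pass the test (adjusted p = 0.686). Per kilobase of exon, the BA median was 118 CPM for CCND1, 24.8 for CCND2 and 2.83 for CCND3, so CCND1 was the most abundant D cyclin in these cells. CCND1, CCND2 and CCND3 each share exon bases with a gene on the other strand (LTO1, CCND2-AS1 and AL513008.1), and the strand of the counts is not stated, so part of their reads could come from it. CCND2 also shares 989 exon bases with AC008012.1 on its own strand, which no strand setting would separate.

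The E cyclins, which activate CDK2 at the entry into S phase, differed from each other. CCNE2 stood at 8.69 to 16.5 CPM (median 11.5) in BA and 4.93 to 11.2 CPM (median 7.86) in E6, and it was higher in BA at all 8 times (1.53-fold, log2 difference 0.62 ± 0.13 SE, adjusted p = 0.00158). It shares 1629 exon bases with INTS8 on the opposite strand. CCNE1 stood at 27.9 to 37.2 CPM (median 34.0) in BA and 30.2 to 56.0 CPM (median 35.3) in E6, with a log2 difference of -0.13 (adjusted p = 0.302). Among the S phase and mitotic cyclins, CCNA2, the partner of CDK2 and CDK1, stood at 232 to 324 CPM (median 252) in BA and 211 to 238 CPM (median 228) in E6. Its ranges overlapped only in their lowest and highest part, and its level was 1.20-fold higher in BA (log2 difference 0.26 ± 0.072 SE, adjusted p = 0.0097). CCNB1 and CCNB2, the cyclins of mitotic entry, were not called, with log2 differences of -0.072 (adjusted p = 0.482) and -0.079 (adjusted p = 0.44).

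Of the 4 kinases, the 2 that bind A, B and E cyclins were called and higher in BA, beside 16.6% of all genes higher and 14.3% lower. CDK2 stood at 51.7 to 73.9 CPM (median 66.5) in BA and 43.9 to 59.1 CPM (median 51.6) in E6 and was higher in BA at all 8 times (1.29-fold, log2 difference 0.37 ± 0.064 SE, adjusted p = 2.63e-04). CDK1, the mitotic kinase, stood at 152 to 217 CPM (median 169) in BA and 135 to 165 CPM (median 150.2) in E6 and was also higher at all 8 times (1.18-fold, log2 difference 0.23 ± 0.071 SE, adjusted p = 0.0173). Its call depended on the last time: without 48 h its adjusted p was 0.06. The partners of the D cyclins were not called. CDK4 was below E6 at all 8 times with a log2 difference of -0.21 ± 0.090 (adjusted p = 0.0938), and its exons share 1369 bases with TSPAN31 on the other strand. The CDK4 difference was -0.94 at 18 h, where the E6 library stood apart, and -0.28 to -0.012 at the other times. CDK6 ranged from 36.0 to 161 CPM in BA and from 16.8 CPM (the 18 h library) to 115 CPM in E6, with a log2 difference of 0.37 ± 0.25 (adjusted p = 0.298).

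Of the 3 CDK inhibitors tested, 1 was higher in BA, 1 was lower and 1 was not called, beside 16.6% of all genes higher and 14.3% lower. CDKN2B, which encodes the INK4 protein p15 and is a known target of TGF-beta signalling in human cells, stood at 1.84, 2.67, 1.81, 3.52, 3.19, 1.76, 0.303 and 0.575 CPM in BA from 6 to 48 h, against 0.220 to 0.894 CPM (median 0.689) in E6. It was above E6 at 7 of 8 times, the exception being 42 h, and 3.03-fold higher on average (log2 difference 1.60 ± 0.27 SE, adjusted p = 1.70e-04). Its counts were 4 to 121 in a library, and the BA replicates at 24 h disagreed, with 3.52, 0.251 and 0.350 CPM in replicates 1, 2 and 3. CDKN1B, which encodes p27, stood at 18.0 to 41.9 CPM (median 22.6) in BA and 26.7 to 45.0 CPM (median 30.3) in E6. It was below E6 at all 8 times (1.26-fold lower, log2 difference -0.34 ± 0.11 SE, adjusted p = 0.0217), and without the 18 h libraries of the 3 media its adjusted p was 0.063. CDKN1C, which encodes p57, stood at 6.74 to 13.4 CPM (median 9.20) in BA and 5.69 to 23.7 CPM (median 8.97) in E6, above E6 at 4 times and below it at 4 (log2 difference -0.093, adjusted p = 0.777).

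RB1, the brake that D and E cyclin kinases release, stood at 72.5 to 101 CPM (median 77.0) in BA and 36.6 to 74.5 CPM (median 63.2) in E6, where the lowest value was the 18 h library. The next E6 values began at 59.2 CPM, so the ranges met only at their edges, and RB1 was 1.33-fold higher in BA (log2 difference 0.42 ± 0.11 SE, adjusted p = 0.0058). Without the E6 library at 18 h the log2 difference was 0.32 (adjusted p = 0.00445). None of the 3 activator E2F genes was called in this average, beside 30.9% of all genes called. E2F2 was above E6 at the first 5 times and below it at the last 3, with 26.1, 32.7, 32.9, 37.8, 32.1, 21.3, 11.1 and 8.94 CPM in BA from 6 to 48 h, against 16.6 to 26.1 CPM (median 21.5) in E6. E2F1 and E2F3 had log2 differences of -0.024 (adjusted p = 0.868) and 0.19 (adjusted p = 0.132).

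MYCN is the MYC family factor typical of embryonic cells. Its BA and E6 values did not overlap over the series, and the share of all genes without overlap was not computed. MYCN stood at 30.9 to 57.4 CPM (median 41.9) in BA and 80.3 to 138 CPM (median 113) in E6. It was 2.49-fold lower in BA (log2 difference -1.32 ± 0.14 SE, adjusted p = 1.25e-06), and already stood at 49.6 CPM at 6 h in BA, against 102 CPM in E6 and 105, 144 and 128 CPM in the 3 t0 libraries. Its exons share 98 bases with the antisense gene MYCNOS. MYC, the broadly expressed member, behaved differently: it was below E6 at the first 5 times and above it at the last 3, which left a mean log2 difference of 0.014 (adjusted p = 0.964). Per kilobase of exon, MYCN stood at a median of 16.1 CPM in BA and 43.3 in E6, and MYC at 21.7 in BA and 23.5 in E6.

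**Figure D2:**
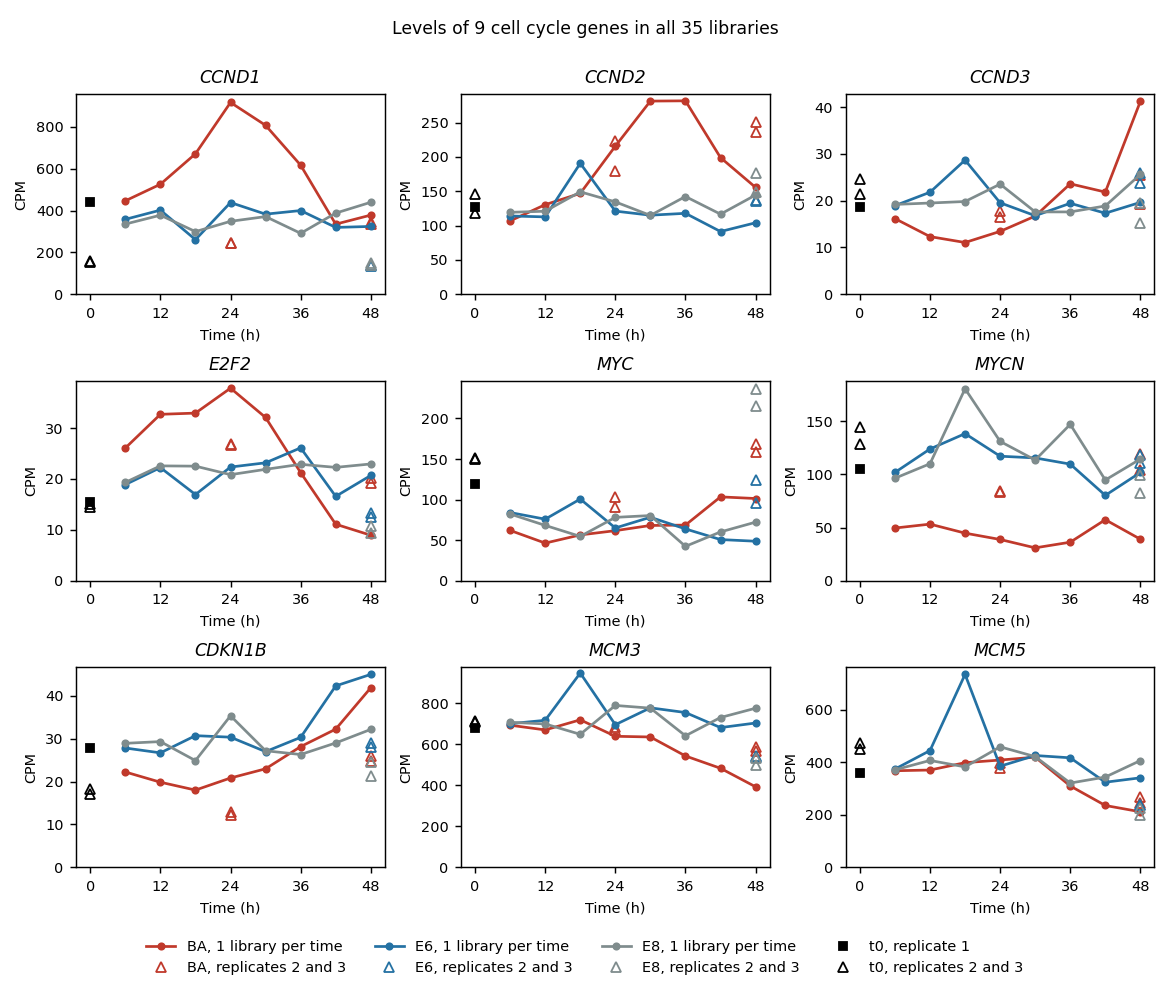
CPM (linear axes from 0) against time in hours for 9 members, with lines for the 1 library per time in BA (red), E6 (blue) and E8 (gray), open triangles for replicates 2 and 3, and black symbols for t0. MYCN in BA (30.9 to 57.4 CPM) lies below E6 at every time on the lines, whereas its 4 triangles in BA lie at 83.7 to 119 CPM.

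Replication licensing, the loading of the MCM helicase onto origins by CDC6 and CDT1, was lower in BA for 4 of 9 members, and none of the 9 was higher, beside 14.3% of all genes lower and 16.6% higher. The median log2 difference of the 9 genes was -0.27, against -0.0065 over all genes. MCM2 stood at 261 to 423 CPM (median 387) in BA and 394 to 533 CPM (median 447) in E6 (log2 difference -0.29 ± 0.074 SE, adjusted p = 0.00624). MCM3 stood at 693, 669.9, 719, 639, 636, 543, 483 and 393 CPM in BA from 6 to 48 h, against 681 to 948 CPM (median 710.3) in E6 (log2 difference -0.31 ± 0.10 SE, adjusted p = 0.0173). The difference was -0.015 at 6 h and -0.84 at 48 h, and the call was lost without 36 h (adjusted p = 0.0656) or 42 h (0.0543). CDC6, the loading factor, stood at 129 to 201 CPM (median 161) in BA and 169 to 212 CPM (median 200.3) in E6 and was lower at all 8 times (log2 difference -0.27 ± 0.062 SE, adjusted p = 0.0027). MCM5 stood at 212 to 420.0 CPM (median 369) in BA and 324 to 736 CPM (median 401) in E6, but the top E6 value was the 18 h library, and its call (log2 difference -0.32 ± 0.11 SE, adjusted p = 0.0434) was lost without that library (log2 difference -0.22, adjusted p = 0.102). The MCM5 call was also lost on leaving out 12, 18, 30, 36, 42 or 48 h, with adjusted p from 0.0501 to 0.117. MCM4 showed the reverse, with an adjusted p of 0.133 with all libraries and a call without it (-0.23, adjusted p = 0.0151). MCM6, MCM7, PCNA (the sliding clamp of the replication fork) and CDT1 were not called, with log2 differences between -0.27 and 0.019. PCNA has 3 pseudogenes named after it, to which some of its reads could map.

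In the mitosis group 1 of 8 genes was called and lower in BA (12.5%), near the 14.3% of all genes lower, and none was higher, beside 16.6%. BUB1, a kinase of the spindle checkpoint, stood at 192 to 353 CPM (median 253) in BA and 253 to 493 CPM (median 288) in E6 (log2 difference -0.30 ± 0.10 SE, adjusted p = 0.0297). It was lower at all 8 times, and its adjusted p lay between 0.0517 and 0.0974 when 6, 12, 30, 42 or 48 h was left out. The other 7 were not called with all libraries: MKI67 (the proliferation marker Ki-67), TOP2A (topoisomerase of chromosome segregation), the mitotic kinases AURKA, AURKB and PLK1, CDC20 (activator of the anaphase complex) and CDC25A (a phosphatase that activates CDKs). Their log2 differences ran from -0.20 for CDC20 to 0.088 for AURKA. For CDC20 the difference was -0.89 at 18 h and -0.28 to 0.086 at the other times. MKI67 stood at 461 to 624 CPM (median 531) in BA and 266 to 625 CPM (median 552) in E6 (log2 difference 0.059 ± 0.12, adjusted p = 0.751). Its lowest E6 value was the 18 h library, and the other E6 values were 507 to 625 CPM. The MKI67 difference was 1.01 at 18 h and -0.41 to 0.054 at the other times, so the positive mean leaned on that library. TOP2A was called without the E6 library at 18 h (-0.18, adjusted p = 0.0303). Without that library the number of members called was 16, beside 32.8% of all genes (17.5% higher in BA and 15.2% lower). Adding replicates 2 and 3, which exist only at 24 h in BA and at 48 h, mixes time with the replicate split. The fit of all 32 libraries has no replicate term. With replicates 2 and 3 added (all 32 libraries of the media), 5 of 38 tested members were called, beside 18.4% of all genes in that fit. The 5 were CCND2, CDK2, CDKN2B, MYCN and BUB1, all among the 15 calls of the series. The share of calls kept was not computed for all genes. The 10 others kept their sign, with log2 differences of 0.62 for CCND1, 0.55 for CCNE2, 0.21 for CCNA2, 0.20 for CDK1, 0.32 for RB1, -0.41 for CDKN1B, -0.30 for MCM2, -0.25 for MCM3, -0.26 for MCM5 and -0.16 for CDC6, and adjusted p from 0.0552 to 0.593.

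The 15 genes could be looked at in libraries that the series did not use, replicates 2 and 3 of BA and E6 at 48 h. Of the 15, 11 had the same direction in both replicates (73.3%) and 3 had the opposite direction in both (20%), beside 70.8% and 16.0% of all 5634 genes called in the series. CCND1 stood at 347 and 338 CPM in BA, against 141 and 136 CPM in E6. CDKN2B stood at 3.27 and 3.84 CPM in BA, against 0.438 and 0.801 CPM in E6. For both genes the difference was larger there than in replicate 1 at 48 h, where CCND1 stood at 378 CPM in BA, against 324 CPM in E6. Of the 4 replication genes, MCM2 kept its sign in both replicates, with log2 differences of -0.011, which is near 0, and -0.11. The other 3 did not keep theirs. MCM3 stood at 587 and 566 CPM in BA, against 540.2 and 543 CPM in E6, and CDC6 at 135 and 141 CPM in BA, against 98.5 and 104 CPM in E6, so MCM3, MCM5 and CDC6 were higher in BA in both replicates. MYCN stood at 119 and 104 CPM in BA, against 119 and 111 CPM in E6, which leaves no difference of 1 sign. The replicate number moves with these disagreements, and its part was not tested.

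**Figure D3:**
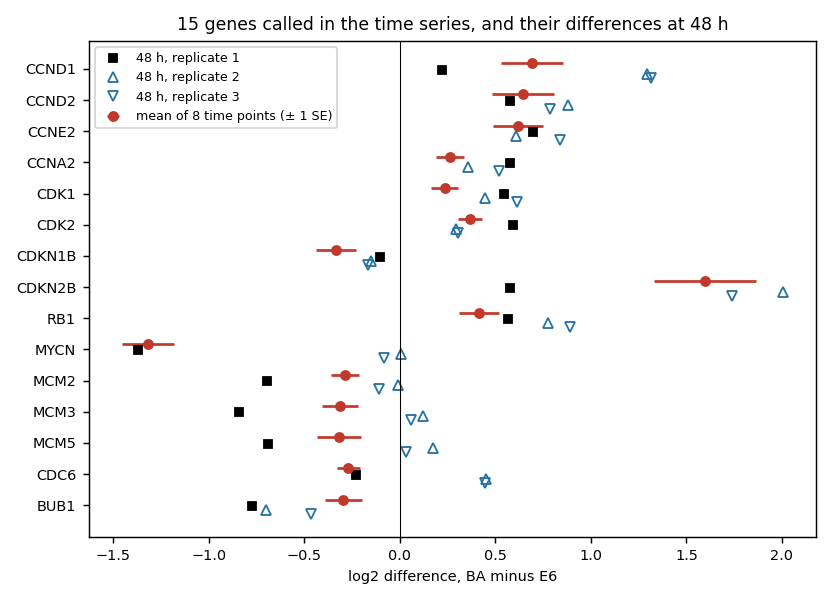
Log2 difference in CPM between BA and E6 (horizontal axis) for the 15 members called in the time series: red points are the mean over 8 times with bars of 1 SE, black squares are replicate 1 at 48 h, and blue open triangles are replicates 2 (pointing up) and 3 (pointing down). The triangles of CCND1, CCND2, CCNE2, CCNA2, CDK1, CDK2, CDKN2B and RB1 lie on the same side as the red point, and those of MCM3, MCM5 and CDC6 lie on the other side.

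Next, the change with time was fitted as a straight line from 6 to 48 h in each medium, given as log2 per 24 h. In BA, 13 of 38 members changed, 7 upward (CCND3, CCNA2, CDK1, CDKN1B, MYC, AURKA and BUB1) and 6 downward (E2F2, MCM2, MCM3, MCM4, MCM5 and CDC6), beside 21.1% of all genes (11.1% upward and 9.99% downward). In E6, BUB1 alone of 38 members changed, upward, beside 0.225% of all genes (0.17% upward and 0.0548% downward), and in E8 none did, beside 0.011% (0.00548% in each direction). In E8, 0 members had an unadjusted p below 0.05, and DESeq2 called 0, beside 20 of all genes called by DESeq2. The slopes in BA share their libraries with the comparison of BA with E6, so the 2 results are not independent.

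Upward in BA, CCND3 rose with a slope of 0.82 ± 0.16 (SE, adjusted p = 4.06e-04). CDKN1B was lowest at 18 h in BA (18.0 CPM), stood at 28.2, 32.2 and 41.9 CPM at 36, 42 and 48 h, and rose by 0.58 ± 0.12 (SE, adjusted p = 8.24e-04), while its slope in E6 was 0.41 ± 0.12 (SE, adjusted p = 0.186). MYC stood at 62.0, 46.4, 56.5, 61.7, 68.1, 68.6, 103 and 101 CPM in BA and 84.1, 75.9, 101, 65.0, 78.2, 63.9, 50.7 and 48.7 CPM in E6 at the same times, and its slopes had opposite signs, 0.56 ± 0.14 (SE, adjusted p = 0.0055) in BA and -0.47 ± 0.15 (SE, adjusted p = 0.238) in E6. The last 2 BA values were the highest of the BA series and the last 2 E6 values the lowest of the E6 series. CCNA2 rose by 0.32 ± 0.069 (SE, adjusted p = 0.00145). CDK1 rose by 0.26 ± 0.073 (SE, adjusted p = 0.0125) and AURKA by 0.26 ± 0.075 (SE, adjusted p = 0.0124). All 3 genes peak late in the cycle. The slopes of CCNA2 and CDK1 were near 0 with replicates 2 and 3 added, which in BA exist only at 24 and 48 h. In these replicates CCNA2 was 2.16-fold and CDK1 1.73-fold lower than in replicate 1 (median of 5 groups). That fit has no replicate term, so time and the replicate split cannot be told apart in it. BUB1 rose in BA by 0.37 ± 0.11 (SE, adjusted p = 0.0204) and in E6 by 0.52 ± 0.11 (SE, adjusted p = 0.0428), where its 2 late values (493 CPM at 42 h and 458 CPM at 48 h) exceeded the other 6 (253 to 294 CPM). The E6 call of BUB1 was lost on leaving out 12, 18, 24, 30, 42 or 48 h, with adjusted p between 0.0648 and 0.98.

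Downward in BA, 5 of the 9 licensing genes fell and none rose, beside 9.99% of all genes with a called fall and 11.1% with a called rise. The 9 had a median slope of -0.29 in BA, against 0.0035 over all genes tested, and all 9 slopes in BA were below 0. MCM3 fell by 0.43 ± 0.087 (SE, adjusted p = 8.04e-04). MCM5 stood at 368, 371, 399, 409, 420.0, 310.0, 236 and 212 CPM from 6 to 48 h in BA, with a slope of -0.46 ± 0.16 (SE, adjusted p = 0.0475), and MCM2 and MCM4 had slopes of -0.29 ± 0.093 (SE, adjusted p = 0.0277) and -0.27 ± 0.089 (SE, adjusted p = 0.0303). The BA levels of MCM2 and MCM5 were lowest at 48 h, and the slopes leaned on that library: without 48 h the slopes of MCM2, MCM4 and MCM5 were -0.17, -0.12 and -0.31, with adjusted p of 0.401, 0.498 and 0.39, while MCM3 kept its call. E2F2, one of the factors that drives such genes, stood at 37.8 CPM at 24 h and 8.94 CPM at 48 h in BA and had a slope of -0.96 ± 0.23 (SE, adjusted p = 0.00312), which without 48 h was -0.64 with an adjusted p of 0.12. CDC6 fell by 0.26 ± 0.072 (SE, adjusted p = 0.00967) and lost its call without 6 h or 42 h, with adjusted p of 0.122 and 0.0571. Without 48 h, 7 members were called in all, with CDK1 (adjusted p = 0.168), AURKA (0.0935) and MYC (0.0527) among those lost. CDK1, AURKA and BUB1 also lost their calls without 6 h (0.0554, 0.0672 and 0.136), MCM2 and MCM5 without 36 h (0.0627 and 0.0804) or 42 h (0.0711 and 0.192), MCM5 without 24 h (0.064), and BUB1 without 42 h (0.0882). Without 12 h, MCM2 (0.051), MCM4 (0.0576), MCM5 (0.0769) and BUB1 (0.0528) were lost. With all 32 libraries, which mix time with the replicate split, 6 members had a called slope in BA, beside 9.67% of all genes. In that fit the BA slopes of CCNA2, CDK1 and BUB1 were 0.00090, 0.022 and 0.13, with adjusted p of 0.999, 0.956 and 0.683, and those of CDKN1B, MCM2, MCM4, MCM5 and CDC6 were 0.48, -0.41, -0.36, -0.51 and -0.30, with adjusted p from 0.0501 to 0.22.

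**Figure D4:**
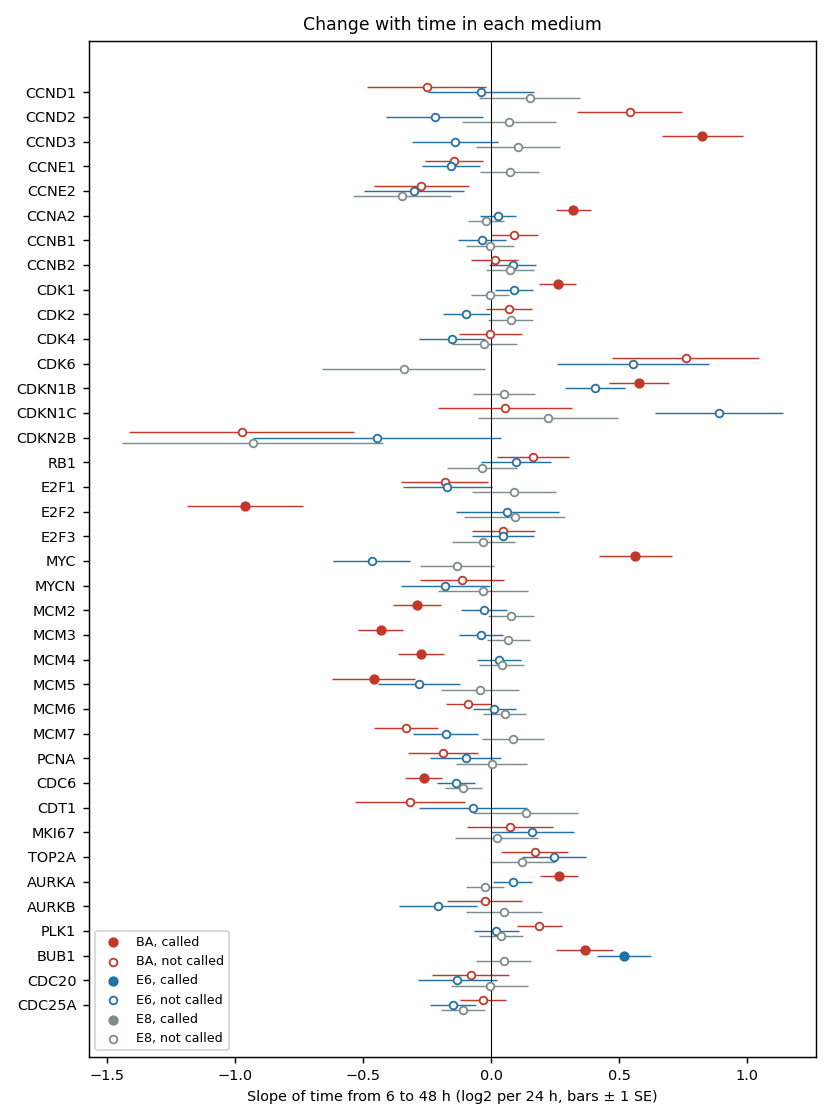
Slope of log2 level from 6 to 48 h (horizontal axis, log2 per 24 h, bars of 1 SE) for the 38 tested members in BA (red), E6 (blue) and E8 (gray), filled where the adjusted p was below 0.05. The filled BA points of MCM2, MCM3, MCM4, MCM5, CDC6 and E2F2 lie left of 0 and those of CCND3, CCNA2, CDK1, CDKN1B, MYC, AURKA and BUB1 right of it, and BUB1 is the only filled point in E6.

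A curve in place of a line (a natural spline with 3 degrees of freedom) called 15 members in BA, beside 22.2% of all genes, and added CCND1, CCND2, CDK6, CDKN2B, E2F1 and MCM7, while CDK1, AURKA, BUB1 and CDC6 were not called. In E6 it called 4 members (CDKN1B, CDKN1C, E2F1 and BUB1), beside 1.93% of all genes. The slopes themselves differed between BA and E6 for 4 members, beside 8.96% of all genes (3.77% with the higher slope in BA and 5.19% with the lower). They were CCND3 (0.96 ± 0.23 log2 per 24 h, adjusted p = 0.00852), MYC (1.03 ± 0.21, adjusted p = 0.00226), E2F2 (-1.02 ± 0.30, adjusted p = 0.0343) and MCM3 (-0.39 ± 0.12, adjusted p = 0.0463). For the other members called in BA, a difference in slope from E6 was not shown.

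The slopes in BA could also be set beside BA at 48 and 24 h in replicates 2 and 3, which the series did not use. Of the 13 members, 11 moved the same way in both replicates (84.6%) and 1 the opposite way in both (7.69%), beside 66.2% and 20.6% of all 3856 genes called. CDKN1B stood at 41.9, 26.1 and 24.9 CPM at 48 h, against 20.8, 13.0 and 12.1 CPM at 24 h, in replicates 1, 2 and 3, higher at 48 h in each pair (log2 differences 0.99, 0.98 and 1.01). MYC stood at 101, 168 and 158 CPM at 48 h, against 61.7, 91.1 and 104 CPM at 24 h. MCM5 stood at 212, 267 and 244 CPM at 48 h, against 409, 399 and 379 CPM at 24 h, lower in all 3 pairs with no overlap between the times. CCNA2 moved the opposite way in both, with 315, 122 and 134 CPM at 48 h, against 238, 144 and 136 CPM at 24 h. CDK1 was lower at 48 h in replicate 2 and higher in replicate 3 (log2 differences -0.087 and 0.36).

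The replicated groups were compared in a fit of group over 15 libraries, in which the split between replicates 1 and 2 or 3 enters the error. Libraries of the same number deviated together, so values with the replicate number as a block, and values from replicates 2 and 3 only (2 libraries a group), are given beside it. For BA at 48 h against BA at 24 h, 0 of 38 members were called, beside 0.455% of all genes (0.343% upward and 0.111% downward). In edgeR 7 members had an unadjusted p below 0.05, beside 2212 of 21554 genes. DESeq2 called 2 members (CDKN1C and MCM7), beside 672 genes. With the block 5 were called, beside 10% of all genes (6.32% upward and 3.69% downward): CDK6, CDKN1B, CDKN1C and RB1 rose and MCM7 fell. CDKN1B had a log2 change of 1.05 with the block (adjusted p = 3.27e-04) and CDKN1C of 0.84 (adjusted p = 0.0347). CDKN1C stood at 13.4, 20.5 and 14.3 CPM at 48 h, against 12.7, 7.78 and 7.19 CPM at 24 h. CDK6 had 1.28 (adjusted p = 0.0179), RB1 0.30 (adjusted p = 0.0412) and MCM7 -0.53 (adjusted p = 0.0304). CCND1 moved in opposite ways, with 378, 347 and 338 CPM at 48 h, against 917, 247 and 245 CPM at 24 h, so it was lower at 48 h in replicate 1 and higher in replicates 2 and 3. In replicates 2 and 3 alone, 24 members were called, 10 upward and 14 downward, beside 34.1% of all genes (18.5% upward and 15.6% downward).

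For BA at 48 h against E6 at 48 h, 1 of 38 members was called, beside 3.52% of all genes (2.03% higher in BA and 1.49% lower). In edgeR 5 members had an unadjusted p below 0.05, and DESeq2 called 2 (CCND2 and AURKA), beside 1603 of all genes called by DESeq2. CCND2 stood at 156, 250.2 and 237 CPM in BA, against 104, 136 and 137 CPM in E6, 1.71-fold higher without overlap (log2 difference 0.77 ± 0.19 SE, adjusted p = 0.0499). That call was lost on leaving out any 1 of the 6 libraries except replicate 1 of BA, with adjusted p from 0.133 to 0.149. With the block 9 were called, beside 22.1% of all genes (12.4% higher and 9.72% lower): CCND1, CCND2, CCNE2, CCNA2, CDK1, CDK2, RB1 and AURKA were higher and BUB1 lower. RB1 stood at 87.9, 27.3 and 30.3 CPM in BA, against 59.2, 15.7 and 16.1 CPM in E6, higher in each of the 3 pairs (log2 0.77 with the block, adjusted p = 1.33e-04). BUB1 stood at 268, 165 and 192 CPM in BA, against 458, 269 and 265 CPM in E6 (log2 -0.63 with the block, adjusted p = 2.49e-04). AURKA stood at 109, 122 and 133 CPM in BA, against 82.2, 93.5 and 89.4 CPM in E6, with no overlap (log2 0.47 with the block, adjusted p = 0.00323). In replicates 2 and 3 alone 19 members were called, 17 of them higher in BA, beside 36.7% of all genes (18.8% higher and 17.9% lower).

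For BA at 24 h against t0, 0 of 38 members were called, beside 1.57% of all genes (1.26% higher and 0.315% lower). In edgeR 4 had an unadjusted p below 0.05, beside 2021 of 21554 genes. DESeq2 called 1 member (CCND2), beside 845 genes. With the block CCND2 rose and CDKN1B fell, beside 8.95% of all genes (5.82% upward and 3.13% downward). CCND2 stood at 216, 224 and 179 CPM in BA at 24 h, against 127, 146 and 119 CPM at t0 (log2 0.70 with the block, adjusted p = 0.0123). CDKN1B stood at 20.8, 13.0 and 12.1 CPM in BA at 24 h, against 27.9, 17.1 and 18.2 CPM at t0 (log2 -0.44 with the block, adjusted p = 0.0233). CDKN1B thus lay below t0 at 24 h in each replicate and above its 24 h level at 48 h. In replicates 2 and 3 alone 12 were called, 6 higher (CCND1, CCND2, CDK2, E2F2, MCM6 and AURKA) and 6 lower (CDK6, CDKN1B, CDKN2B, MYC, MYCN and BUB1), beside 20.7% of all genes (11.5% higher and 9.21% lower). MYCN stood at 38.8, 84.5 and 83.7 CPM in BA at 24 h, against 105, 144 and 128 CPM at t0, lower in all 3 pairs. CCND1 stood at 917, 247 and 245 CPM in BA at 24 h, against 443, 160.3 and 154 CPM at t0, higher in all 3 pairs although the spread between replicates exceeded the difference.

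The control media were compared in the same way: over the series, between E6 and E8, 0 of 38 members and 0 of 18244 genes were called (0%). In that edgeR fit no member and 268 genes had an unadjusted p below 0.05, and DESeq2 called 0 members and 250 genes. The error of both fits is shared with BA, so departures of BA over time enter it, and their part was not tested. At 48 h, E6 against E8 gave 0 of 38 members, beside 0.144% of all genes (0.0882% higher in E6 and 0.0557% lower). In edgeR 2 members had an unadjusted p below 0.05. DESeq2 called 1 member (CDKN1C), beside 226 of all genes. CDKN1C stood at 23.7, 24.4 and 24.6 CPM in E6, against 10.5, 11.3 and 10.1 CPM in E8, with no overlap (log2 1.20, adjusted p = 0.109). With the block it was called (1.21, adjusted p = 0.0134), as was BUB1 (0.52, adjusted p = 0.00495), beside 2.84% of all genes (1.52% higher and 1.32% lower). In replicates 2 and 3 alone 10 members were called, 8 of them higher in E6, beside 18.4% of all genes (9.68% higher and 8.77% lower). Among the lower, MYC stood at 124 and 95.6 CPM in E6, against 237 and 216 CPM in E8.

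Cells kept in E8 were compared with the start. For E8 at 48 h against t0, 0 of 38 members were called, beside 0.139% of all genes (0.135% higher and 0.00464% lower). In edgeR 5 members had an unadjusted p below 0.05. DESeq2 called 0 members, beside 1310 of all genes. With the block 10 were called, beside 25.6% of all genes (12.6% higher and 13% lower): CDKN1B, CDKN1C and TOP2A were higher and CCNE2, CDK4, RB1, E2F3, MCM5, CDC6 and CDC25A lower. CDC25A stood at 123, 63.2 and 52.7 CPM in E8 at 48 h, against 135, 146 and 146 CPM at t0 (log2 -0.88 with the block, adjusted p = 0.00721). CDC6 stood at 172, 91.5 and 90.7 CPM in E8 at 48 h, against 212, 196 and 191 CPM at t0 (log2 -0.77 with the block, adjusted p = 0.0082). In replicates 2 and 3 alone 28 members were called, 8 higher and 20 lower, beside 51.3% of all genes (26.9% higher and 24.4% lower). The lower ones include the 6 MCM genes. MCM5 stood at 407, 225 and 198 CPM in E8 at 48 h, against 361, 475 and 451 CPM at t0, so replicate 1 was above t0 and replicates 2 and 3 far below it. In replicates 2 and 3 the MCM5 levels at 48 h were 267 and 244 CPM in BA, 237 and 239 CPM in E6 and 225 and 198 CPM in E8, whereas in replicate 1 they were 212, 341 and 407 CPM.

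The authors' deposited table gives a log2 fold change and adjusted p for the 40 members in 4 groups, with no reference named in its header. At an adjusted p below 0.05 the authors' deposited table holds 1 member for BA at 24 h (E2F2, log2 0.97, adjusted p = 0.0071), beside 2.55% of its genes. For BA at 48 h the authors' deposited table holds 3 members, CDKN1C (log2 1.31, adjusted p = 2.26e-04), AURKA (0.56, 0.011) and MCM5 (-0.78, 7.42e-04), beside 5.45%. For E6 at 48 h the authors' deposited table holds CDKN1C (log2 1.86, adjusted p = 4.48e-16), beside 6.00%, and for E8 at 48 h it holds no member, beside 2.17%.

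Other genes of the same processes were read from 4 lists, whose counts stand beside 16.6% of all genes higher and 14.3% lower in BA than in E6, and 11.1% rising and 9.99% falling with time in BA. Of 40 other replication genes, all tested, 5 were higher in BA than in E6 over the series (12.5%) and 7 lower (17.5%), near these shares, with a median log2 difference of -0.12. POLE, the catalytic subunit of DNA polymerase epsilon, had 0.78 (adjusted p = 3.40e-06), the checkpoint adaptor CLSPN 0.41 (0.0201) and UHRF1, which couples replication to DNA methylation, 0.33 (0.0263). Lower in BA were PRIM1, a primase subunit, at -0.43 (0.00511), RPA2, which binds single-stranded DNA, at -0.34 (0.00996) and the origin kinase CDC7 at -0.29 (0.00767). With time in BA, 1 of the 40 rose, the histone mRNA binding gene SLBP (0.38 log2 per 24 h), and 7 fell. Among those that fell were CHAF1A, a histone chaperone at the fork (-0.50), and PRIM1 (-0.46), and the list had a median slope of -0.12.

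Of 36 other mitosis genes, 11 were higher in BA than in E6 (30.6%) and 2 lower (5.56%), beside 16.6% and 14.3% of all genes, with a median log2 difference of 0.041. ANLN, a scaffold of cytokinesis, had 0.38 (adjusted p = 0.0116), the kinetochore motor CENPE 0.37 (0.0227) and GTSE1, a microtubule-binding protein, 0.31 (0.00201). The lower 2 were the checkpoint gene BUB3 at -0.63 (9.52e-07) and the phosphatase CDC25B at -0.47 (4.52e-04). With time in BA, 4 rose (11.1%, the share over all genes), led by CENPE (0.57 log2 per 24 h), CDC25B (0.48) and CENPA (0.44), and 2 fell, WEE1, the kinase that restrains CDK1 (-0.77), and BUB3 (-0.20). At 48 h in the replicated groups, MYBL2 (0.80, adjusted p = 0.0453) and CENPA (0.79, adjusted p = 0.0361) were higher in BA than in E6.

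Of 26 other genes of G1 control, 5 were higher in BA than in E6 (19.2%, near the 16.6% of all genes) and 1 lower, with a median log2 difference of 0.053. CCNG2, an atypical cyclin linked to cycle arrest, was 3.99-fold higher (adjusted p = 6.29e-06), FBXW7, the ubiquitin ligase subunit that targets cyclin E and MYC, had a log2 difference of 1.11 (2.78e-05) and MXD1, a MAX partner that opposes MYC, 0.55 (0.039). TFDP2, an E2F partner, was lower at -0.38 (0.025). With time in BA, 7 rose, led by MXI1, also a MAX partner (1.48 log2 per 24 h), MYCL (1.23) and FBXW7 (0.64), and 1 fell, CDKN1A, which encodes p21 (-0.92, adjusted p = 0.0127). Of 18 MYC target genes of ribosome and nucleotide synthesis, 0 were higher in BA and 3 were lower over the series (16.7%, near the 14.3% of all genes): RRS1 (-0.42, adjusted p = 0.0262), NPM1 (-0.34, 0.0167) and CAD (-0.17, 0.0315). The median log2 difference of the 18 was -0.19, and 0 had a called slope in BA with edgeR, where 3 had an unadjusted p below 0.05, while DESeq2 called 1.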

How the data were processed

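Poly(A) RNA of H9 cells was sequenced from Illumina TruSeq mRNA libraries (per the labels), and no strand setting is given in the sources used here. The authors deposited 1 table of counts of reads per gene for 35 libraries, and the submitters' processing notes name hg38, featureCounts and DESeq2. The authors also deposited log2 fold changes with p-values and adjusted p-values for 4 groups, with the reference not given in the sources used here. Gene symbols in the files matched GENCODE 23, and exon overlaps were read from GENCODE 29.

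Counts were tested as deposited with edgeR 4.0.16 (R 4.3.3, limma 3.58.1), with TMM normalization, its filter on low counts (minimum count 10) and its quasi-likelihood test, Benjamini-Hochberg adjusted over all genes tested. Replicated groups were fitted over 15 libraries (21554 genes) and the series over 24 libraries (18244 genes), with time as a factor, as a slope per 24 h, or as a spline with 3 degrees of freedom. Differences in 1 replicate or at 1 time are log2(CPM + 0.5). DESeq2 1.42.0, RLE normalization, no filter, all 32 libraries of the media, a replicate block and left-out libraries or times were alternatives, and leaving out the E6 library at 18 h, alone or with E8 at 24 h, was added after seeing the data. Libraries of the same number deviated together in all 30 pairs (r from 0.622 to 0.918), so the numbers were taken to pair the libraries. Libraries numbered 2 and 3 also deviated together across groups (20 pairs, r from 0.593 to 0.792), so the check does not tell pairing by number from the split of replicate 1 from replicates 2 and 3. Libraries held 11793453 to 37191969 counts. Replicates 2 and 3 of a group differed by more than sampling noise and were kept apart. Any of the 40 members could be named. Of each other list, at most the 3 called genes with the largest absolute log2 change per direction were named. Members and lists were chosen with earlier results of these data known. Scripts were tested on simulated data.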

Additional observations from a re-analysis of the deposited data

Results flagged for a closer look

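The change with time differed between BA and E6, by a test of the difference itself, for 4 members. MYC had a slope 1.03 log2 per 24 h higher in BA (adjusted p = 0.00226 in edgeR), and kept its call when each of the 8 times was left out in turn. CCND3 had a slope 0.96 log2 per 24 h higher in BA and was called in 7 of 8 such fits, all but the one without 48 h (0.74, adjusted p = 0.116). The difference for E2F2 was -1.02 log2 per 24 h, called in 3 of 8 fits, and that for MCM3 was -0.39, called in 1 of 8. With all 32 libraries none of the 4 was called, with adjusted p of 0.407 for MYC, 0.142 for CCND3, 0.688 for E2F2 and 0.934 for MCM3. Time and the replicate split cannot be told apart in that fit. MYC in replicates 2 and 3 at 48 h stood at 168 and 158 CPM in BA, 124 and 95.6 CPM in E6 and 237 and 216 CPM in E8.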

How the results depend on the processing

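The numbers of members called depended on the treatment of the replicate split, and the cause was not tested. With the replicate block the count was 2 for BA at 24 h against t0, beside 8.95% of all genes. It was 5 for BA at 48 h against BA at 24 h (10%) and 9 for BA against E6 at 48 h (22.1%). For E6 against E8 at 48 h it was 2 (2.84%), and for E8 at 48 h against t0 it was 10 (25.6%). The block reversed no value, removed no call and changed no call of a member outside these counts. DESeq2 gave 1, 2, 2 and 1 for the first 4 of these, beside 845, 672, 1603 and 226 of all genes. Leaving out 1 replicate number or 1 library gave 0 to 12, 0 to 24, 0 to 19, 0 to 10 and 0 to 28. The same fits called 0 to 4511, 0 to 7441, 0 to 7999, 0 to 4025 and 0 to 11190 of all genes. For BA against E6 at 48 h the count was 0 with no filter and 0 in a fit of only the 2 groups, the latter beside 76 of all genes.

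Over the series, all 32 libraries gave 5 members for BA against E6, beside 3719 of all genes. They gave 6 for the BA slope (1959 genes), 2 for the E6 slope (1842) and 0 for the difference of slopes (122). Time and the replicate split are mixed in these fits. The BA slope had 8 with no filter and 7 to 15 with 1 time left out, the latter beside 2594 to 4300 of all genes. The E6 slope had 4 with a spline (352 genes) and 0 without the E6 18 h and E8 24 h libraries. With 1 time left out it had 0 to 1 (1 to 68 genes), and the difference of slopes had 2 to 3 (838 to 1869).

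Some single values changed sign with 1 library left out. RB1 at 48 h against 24 h in BA ran from -0.49 to 1.08, with -0.011 without replicate 3 at 24 h. For BA against E6 at 48 h, CCNE2 ran from -0.042 to 1.79, CCNA2 from -0.059 to 1.03 and RB1 from -0.070 to 1.63. For E8 at 48 h against t0, RB1 ran from -1.13 to 0.47 and TOP2A from -0.011 to 0.82. These fits have no replicate term, so leaving out 1 library unbalances the replicate split. Between libraries of the same number, each of these differences kept 1 sign. For BA against E6 at 48 h, replicates 1, 2 and 3 gave 0.70, 0.61 and 0.84 for CCNE2. They gave 0.58, 0.36 and 0.52 for CCNA2 and 0.57, 0.77 and 0.89 for RB1. Of the single-gene values under the other settings listed at the outset, 593 kept direction and side of the threshold, 78 lost the call, 62 gained it and 7 reversed. With 2 libraries a group the calls assume that both vary like the other groups. Depth limits CDKN2A, CDKN2B and CDKN2C.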
